A study of Mus musculus with 30 samples.

Results

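Cardiomyocyte-like cells were picked from a single-cell RNA library of neonatal mouse heart fibroblasts that had received a reprogramming cocktail. Of 4816 barcodes in the deposited neonatal matrix, 3828 had 500 or more genes and under 20% of their counts in mitochondrial genes and were kept. A kept barcode was called cardiomyocyte-like when at least 5 of the 8 selection genes Tnnt2, Actc1, Myl7, Myl4, Ttn, Actn2, Tnni3 and Ryr2 had a count of 2 or more. That held for 717 barcodes, 18.7% of those kept (exact binomial 95% interval 17.5% to 20%, which like every interval below covers counting error only). The reference was the 2029 kept barcodes (53.0%) with at most 2 selection genes at that count, and 1082 barcodes with 3 or 4 belonged to neither group. Both single-cell matrices together held 11612 barcodes.

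The cells were wild-type primary cardiac fibroblasts (CFs) from hearts of mice at postnatal days 1 to 3, and the library carries the label MGT, the mix of Mef2c, Gata4 and Tbx5. The day of collection and the number of animals are not given in the sources used here. The other single-cell library came from wild-type CFs of 24-month mice, also with MGT. Bulk RNA-seq libraries, n = 2 per group, covered neonatal and 3-month wild-type CFs cultured for 3 days without MGT or LacZ, and neonatal and 3-month wild-type CFs 3 days after MGT or after LacZ, a control gene. Labels do not say whether the 2 libraries of a group came from separate animals or cultures, so the bulk p-values measure only the spread between those libraries, which may be technical. The design text asks why adult and aged CFs convert poorly into induced cardiomyocytes (iCMs).

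Direct reprogramming turns a fibroblast into a cardiomyocyte-like cell without a stem cell stage, by forced expression of cardiac transcription factors. A cardiomyocyte contracts through sarcomeres, in which actin thin filaments with troponin and tropomyosin slide along myosin thick filaments between Z-discs, and calcium released from the sarcoplasmic reticulum through the ryanodine receptor switches the troponin on. Cultures of neonatal heart cells can also carry over cardiomyocytes, epicardial cells, endothelial cells and macrophages.

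The selection genes encode troponin T (Tnnt2), cardiac actin (Actc1), the atrial light chains Myl7 and Myl4, titin (Ttn), alpha-actinin (Actn2), troponin I (Tnni3) and the ryanodine receptor (Ryr2). Their values chose the cells and are given as description only. Levels are CPM, the summed counts of a gene in a group scaled to the group's total counts. Myl4 stood at 10042 CPM in the cardiomyocyte-like cells and 193 CPM in the reference, Myl7 at 9919.7 against 38.4 CPM, and Tnnt2 at 9798 against 1638 CPM. Tnnt2 had the smallest ratio of the 8 (5.98-fold), and 90.1% of the reference barcodes also carried a count of it. Actc1 was at 1592 against 6.57 CPM and Tnni3 at 731 against 3.06 CPM. The long genes Ttn, Ryr2 and Actn2 reached 295, 139 and 37.5 CPM, against 3.2, 2.04 and 0.35 CPM. By number of selection genes, 319 cells had 5, 146 had 6, 143 had 7 and 109 had all 8.

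The 24-month library gave 8 barcodes under the same rule, 0.139% of 5773 kept (95% interval 0.0598% to 0.273%). In that library 4430 kept barcodes had no selection gene with 2 counts, against 286 in the neonatal library. The libraries shared 11 barcode sequences, 1 of them in a neonatal cardiomyocyte-like cell. With 1 library per age the difference has no replicate check, and age and library cannot be told apart.

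**Figure D1:**
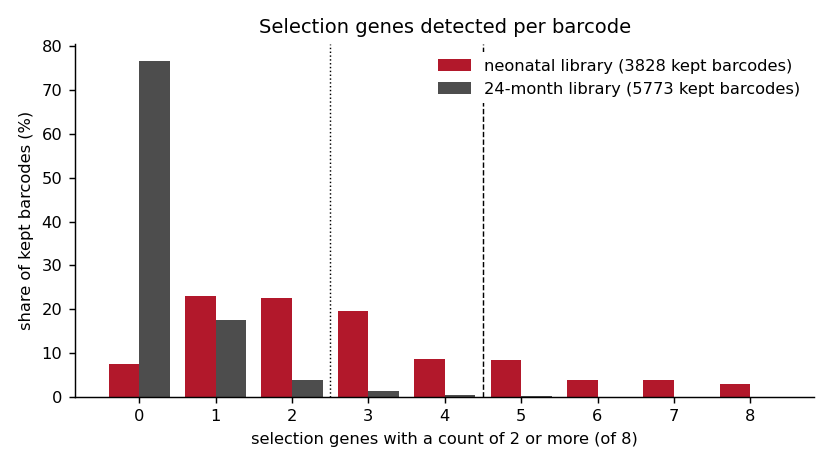
Share of kept barcodes (y axis, %) by the number of selection genes with a count of 2 or more (x axis), for the neonatal and the 24-month library, n = 1 library each. The dotted line bounds the reference and the dashed line the cardiomyocyte-like cells; the neonatal bars extend to 8 genes while the 24-month bars pile up at 0.

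Depth differed between the groups compared. A cardiomyocyte-like cell held 775 to 253475 counts with a median of 38552, and the reference had a median of 5989 counts. Median genes per barcode were 5985 and 1605, and the median mitochondrial share was 2.01% and 2.43%. The rule asks for absolute counts. At the 4-gene step just outside the threshold, 332 barcodes had a median of 15416 counts with 1.69% of them in the selection genes. Just inside, at 5 genes, 319 barcodes had a median of 5218 counts with 4.46% in the selection genes, so the barcodes just inside were shallower. Of the 717 cells, 213 held under 10000 counts, 159 held 10000 to under 40000 and 345 held 40000 or more. The selection genes took a median of 7.23%, 3.10% and 2.56% of counts in these 3 depth classes.

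**Figure D2:**
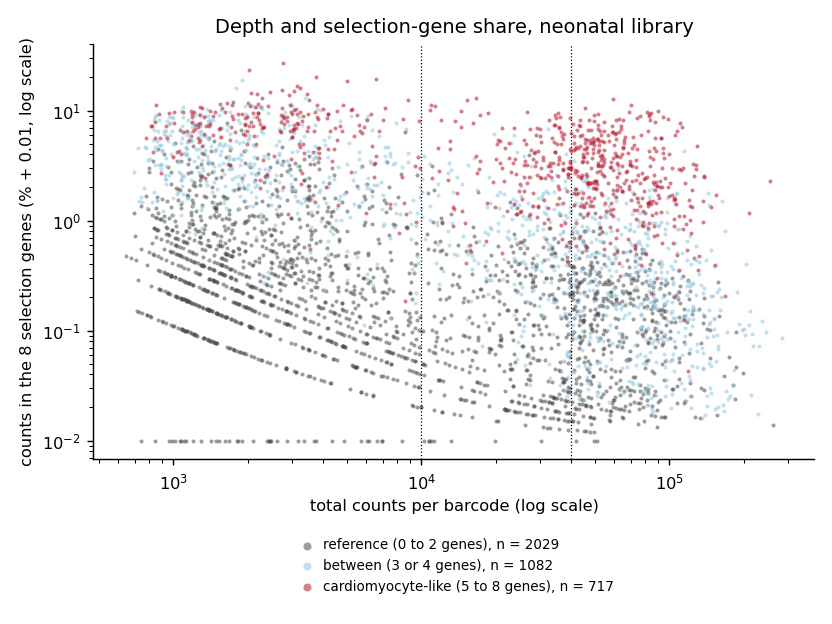
Total counts per barcode (x axis, log scale) against the share of counts in the 8 selection genes (y axis, % + 0.01, log scale), each point 1 kept neonatal barcode. The median share of the cardiomyocyte-like cells is 7.23% under 10000 counts and 2.56% at 40000 counts or more; dotted lines mark 10000 and 40000 counts.

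Outside the selection genes, 3333 genes reached 50 CPM in either group. Of these, 116 genes (3.48%) were at least 4-fold higher in the cardiomyocyte-like cells and 46 genes (1.38%) at least 4-fold lower. A gene meeting both conditions is called higher or lower below. Because either group can meet the level, a gene low in 1 group passes it only through the other. The share of a list called among its genes at the level therefore follows in part from the filter. Cells of 1 library are not replicates and the same cells were selected on muscle genes, so these ratios carry no test. Over all 15614 genes with 10 or more counts in both groups together, the median log2 ratio was 0.02. The largest 15 ratios included Myl1 (232-fold), Myh6 (229-fold), Nppa (181-fold), Mybpc3 (137-fold), Tnnt3 (126-fold), Mb (125-fold) and Sln (108-fold), all known from striated muscle. Others among the 15 were Rrad, a small GTPase that damps calcium channels, at 568 against 9.5 CPM, the potassium channel gene Kcnc4 (107-fold), Adprhl1, a heart-enriched pseudoenzyme, at 119 against 1.75 CPM, and Ppp1r3c, a glycogen-targeting subunit, at 70.7 against 1.42 CPM.

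Thick filament and M-band genes stood highest among the muscle lists. Of 12 genes, 6 reached 50 CPM and all 6 were higher, with a median log2 ratio of 5.56 over the 10 genes with 10 or more counts. The 12 genes summed to 23.2 CPM in the reference, so the 6 reached the level only through the cardiomyocyte-like cells. Myh6, the myosin motor of the adult mouse heart, was at 406 CPM against 1.77 CPM (229-fold, 95% interval 184 to 289). It was uneven among the cells, with a lower quartile of 0, a median of 18.4, an upper quartile of 579.6 and a highest value of 10360.5 CPM, and the 10% of cells with the most held 78.4% of the counts. Mybpc3, the myosin-binding protein C that brakes cross-bridges, was at 93.2 against 0.678 CPM (95% interval 96.6 to 203 for the ratio of 137). Smpx, a small muscle protein, was at 277 against 6.41 CPM, and the M-band genes Myom1 and Myom2, which crosslink myosin, at 102 against 11.7 and 72.3 against 1.4 CPM. Myh7, the fetal and slow myosin, was low at 2.28 CPM, with a count in 5.3% of cells, although its log2 ratio to the reference was 5.12. That ratio was taken at the floor of 3 reference counts.

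Thin filament genes outside the selection followed, with 5 of the 7 that reached 50 CPM higher (12 genes listed, median log2 ratio 3.87). Tnnc1, the calcium sensor of the troponin complex, was at 454 against 9.54 CPM (47.5-fold, 95% interval 43.2 to 52.4). Tpm1, the tropomyosin strand along actin, was abundant in both groups at 5726 and 1229 CPM (4.66-fold), and it dropped below 4-fold, to a log2 ratio of 1.95, when 4 selection genes were enough. Lmod2, which elongates thin filaments, was at 161 against 2.71 CPM. The skeletal actin Acta1, also a fetal heart actin, was at 67 against 2.78 CPM, and Xirp2, an actin-binding repeat protein, at 73.3 against 5.14 CPM. Among single cells Tnnc1 had a median of 101.5 CPM, an upper quartile of 877 and a highest value of 8816 CPM. The smooth muscle actin Acta2, common in activated fibroblasts, was close in both groups at 2779 and 2071 CPM.

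At the Z-disc, 7 of 14 genes at the level were higher (16 listed, median log2 ratio 2.26). Csrp3, a muscle LIM protein at the Z-disc, was at 897 against 10.5 CPM (85.4-fold, 95% interval 78.1 to 93.7). Its level ranged over the cells from a lower quartile of 23.2 through a median of 287 to an upper quartile of 1348 CPM. Tcap, which caps titin at the Z-disc, was at 153 against 3.79 CPM. Des, the muscle intermediate filament desmin, was at 1307 against 87.2 CPM (15-fold). Ankrd1, a stress-responsive titin-binding protein, and Cryab, a small chaperone of desmin, were already high in the reference, at 2523 and 1272 CPM, and stood at 5537 and 4619 CPM in the cardiomyocyte-like cells.

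Calcium handling genes showed 5 of 7 higher (14 listed, all 14 above 0 on the log2 scale, median 2.60). Sln, the small atrial inhibitor of the calcium pump, was at 3169.5 against 29.3 CPM (108-fold, 95% interval 103 to 114), with quartiles of 433, 3036 and 7296 CPM over the cells. The pump itself, Atp2a2, was at 988 against 138 CPM (7.17-fold), and Trdn, which anchors the calcium store to the ryanodine receptor, at 243 against 5.14 CPM. Pln, the ventricular counterpart of Sln, was low at 22.8 CPM and had a count in 11.6% of cells against 92.6% for Sln. Of 14 channel and gap junction genes only Gja1, the connexin of the working myocardium, reached 50 CPM, at 263 against 24.3 CPM.

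Hormone, chamber and skeletal genes completed the muscle picture. Nppa, the atrial natriuretic peptide, averaged 249 CPM against 1.38 CPM, but 12.1% of the cells had a count and the top 10% held 99.8% of the counts. Of 10 atrial genes, 3 reached the level and all 3 (Nppa, Sln and Stard10) were higher. Of the 9 atrial genes with 10 or more counts, 6 lay above 0 and 3 below, with a median log2 ratio of 2.22. Of 7 ventricular genes only Gja1 reached it, while Myl2, the ventricular light chain, had 6 counts in all 717 cells and Myl3 had 0. From the skeletal list, Tnnt3 and Myl1 were higher at 218 and 168 CPM against 1.73 and 0.722 CPM, and the skeletal master regulators Myod1, Myf5, Myf6 and Pax7 had 0 counts in the cells. The defining cardiac regulator Nkx2-5 was near 0, at 1.07 CPM with a count in 1.81% of cells. The name cardiomyocyte-like therefore rests on sarcomere and calcium genes.

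Metabolic genes differed less. Of 21 fatty acid and energy genes, 10 reached the level and 4 were higher, with a median log2 ratio of 1.37. Mb, the oxygen store myoglobin, was at 203 against 1.62 CPM, the muscle glycolytic enzyme Pgam2 at 548 against 23.6 CPM, Eno3 at 185 against 11.9 CPM and the fatty acid carrier Fabp3 at 417 against 76.9 CPM. All 24 respiratory chain genes lay above 0 with a median log2 ratio of 0.56 and none was called, as with Cox8a at 2083 against 1234 CPM.

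**Figure D3:**
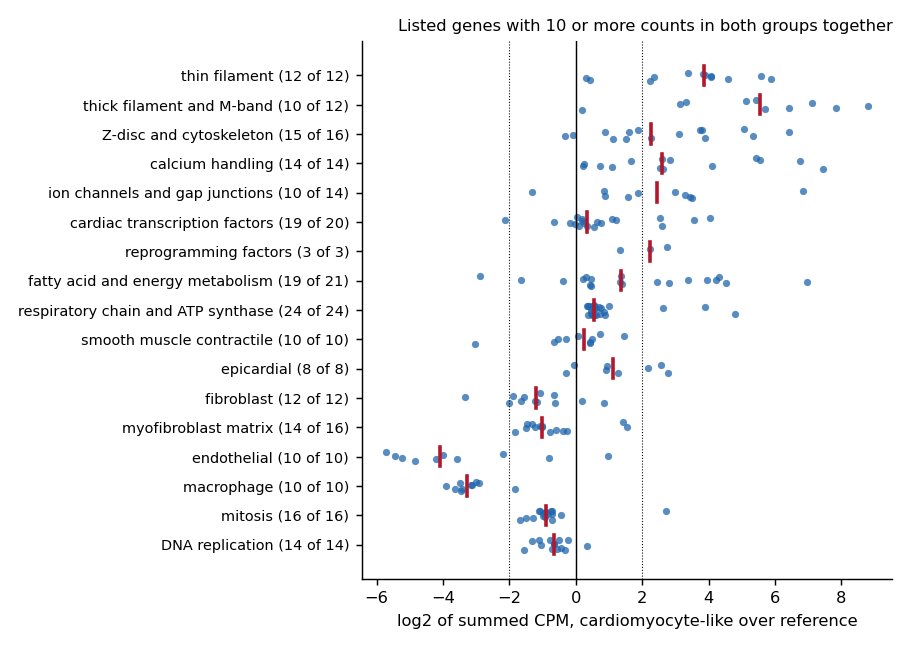
Log2 ratio of summed CPM, cardiomyocyte-like over reference (x axis), for each listed gene with 10 or more counts in both groups together (points, with the number plotted of the number listed) and the list median (red bars). Dotted lines mark 4-fold; the thick filament median of 5.56 lies farthest right and the endothelial median of -4.10 farthest left.

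Shares of cells with a count were higher in the cardiomyocyte-like cells for the genes examined, also at matched depth. Tnnc1 had a count in 70.7% of cardiomyocyte-like cells, 12.8% of the reference and 19.7% of 193 barcodes with 5 or more macrophage markers (median 31770 counts), a type that should lack it. After each barcode was thinned to 2000 counts, which kept 647, 1488 and 187 barcodes, the shares were 35.7%, 1.95% and 2.14%. Myh6 gave 51.7%, 3.7% and 8.81% before thinning and 31.1%, 0.672% and 0% after it. Sln gave 92.6%, 27.9% and 37.3%, then 73.6%, 7.39% and 9.09%. At 2000 counts the reference shares of Tnnc1 and Sln lay below those of the macrophage-marker barcodes. The reference share of Myh6 lay above, at 0.672% against 0%. Whether these reference counts are background or expression was not tested.

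Of the 3 reprogramming factors 1 was called higher: Mef2c, a MADS-box factor of muscle genes, which was at 532 against 79.8 CPM (6.67-fold, 95% interval 6.43 to 6.92). The zinc finger factor Gata4 was at 116 against 46.4 CPM (2.5-fold) and the T-box factor Tbx5 at 13.7 against 2.93 CPM (4.66-fold, below the 50 CPM level). Tbx5 was under 4-fold in 4 alternatives, the lowest a log2 ratio of 1.38 among barcodes under 10000 counts. Counts from the delivered copies and from the cell's own genes were not told apart. All 3 factors had a count in 196 cardiomyocyte-like cells (27.3%, 95% interval 24.1% to 30.8%) and in 42 reference barcodes (2.07%). The share was 2.07% of the 193 macrophage-marker barcodes and 14.1% of 71 endothelial-marker barcodes (10 barcodes, 95% interval 6.97% to 24.4%; median 27381 counts). Among barcodes with 10000 counts or more these were 195 of 504 cells (38.7%) and 41 of 862 (4.76%). None of the 3 factors had a count in 89 cardiomyocyte-like cells, 84 of which held under 10000 counts. At 2000 counts per barcode the share with all 3 was 0.309% of 647 cells and 0 of 1488 reference barcodes, too few to compare. Of 20 further cardiac transcription factors none was called, and the median log2 ratio was 0.35, with Tbx20, a T-box factor, at 487 against 332 CPM. Nr4a3, the nuclear receptor manipulated in other samples of the study, was low at 2.31 and 1.51 CPM.

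Among the 116 higher genes, 84 had an entry in the RefSeq promoter table (build GRCm38.p6), which was searched on both strands over 250 bases before each start site. A gene with several start sites counts once if any of them matches, so it has more chances to match. A MEF2 motif, the site class of the factor delivered as Mef2c, matched in 11 of the 84 (13.1%) and in 923 of all 27025 genes of the table (3.42%). Of the 8 selection genes, 1 matched, Ttn. Matches in 4 muscle genes and that in Ttn are shown with 10 bases on either side, in the direction of the gene, because these genes encode sarcomere, calcium store or energy proteins of the lists above; capitals mark the match.
Mybpc3: tggaatttgtCTATATTTAGcaggtggcta
Casq2: attgcatgatTTATTTTTAGctcgaaacaa
Pgam2: ttttgtgagaCTATTTTTAAgttcagctcc
Xirp2: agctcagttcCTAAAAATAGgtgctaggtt
Ttn: ttctgaaaggCTAAATTTAGcactgccaat
They lie at chr2:91118044-91118073 (plus strand), chr3:102086336-102086365 (plus strand), chr11:5803857-5803886 (minus strand), chr2:67445918-67445947 (plus strand) and chr2:76982694-76982723 (minus strand). The GATA motif AGATAA matched in 14.3% of the 84 genes against 11.4% of all genes, and the T-box motif AGGTGT in 11.9% against 13.6%. A match describes the letters and not a bound site.

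Macrophage genes were among the lower genes. All 6 macrophage markers at the level were lower (10 listed, median log2 ratio -3.29), such as Lyz2, a lysozyme, at 149 against 1133 CPM (7.59-fold lower) and the complement gene C1qb at 24.5 against 303 CPM (12.4-fold lower). Of 10 endothelial genes 2 reached the level and 1 was lower (median -4.10), while Eng, an endothelial receptor, was at 103 against 179 CPM. The lower one, Emcn, a surface mucin, was at 1.78 against 66.7 CPM (37.5-fold lower, 95% interval 28.6 to 50.2), and among barcodes under 10000 counts its log2 ratio was -1.21. The reference barcodes carried these markers: their summed macrophage markers came to 2487 CPM, against 289 CPM in the cardiomyocyte-like cells. The sum was 53.8 CPM in 734 reference barcodes with 5 or more fibroblast markers, called the fibroblast-marker reference. Barcodes with macrophage or endothelial markers had been left out of these 734, so their low level follows from that choice. The 701 cardiomyocyte-like cells without macrophage or endothelial markers were compared with those 734 barcodes. The macrophage median was then -0.58 and the endothelial one -0.51, in place of -3.29 and -4.10. Both groups had been cleared of such barcodes, so these medians do not describe all 717 cells. In the same comparison 15 of the 46 lower genes and 111 of the 116 higher genes remained called. Lyz2 and C1qb had log2 ratios of -1.42 and -0.17 there. Among the 717 cells, 14 carried 5 or more macrophage markers (median 83243.5 counts) and 2 carried 4 or more endothelial markers; doublets were not removed, and their part in the results was not tested.

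Fibroblast genes were lower by less than 4-fold. Of 12, 10 lay below 0 with a median log2 ratio of -1.21, and none was called. Col1a2, a chain of type I collagen, was at 793 against 1799 CPM (2.27-fold lower, 95% interval 2.24 to 2.3), Col1a1, the other chain, at 1049 against 1602 CPM (1.53-fold lower) and fibronectin (Fn1) at 1119 against 2649 CPM. Vim, the mesenchymal filament vimentin, was at 4129 and 3648 CPM, and its direction changed among the alternatives. Of the 717 cells, 369 met the fibroblast-marker rule, with a median of 54637 counts per cell. That rule asks for 5 or more markers and leaves out barcodes with macrophage or endothelial markers. More of the cells may therefore hold fibroblast transcripts. Matrix genes of the myofibroblast list were lower in 12 of 14 cases (median log2 ratio -1.02). Against the fibroblast-marker reference, cells without macrophage or endothelial markers had thick and thin filament medians of 6.23 and 4.01.

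Epicardial markers were partly higher, with 2 of 3 at the level called (8 listed, median log2 ratio 1.12). Of the 8, 6 lay above 0 and 2 below. Upk3b had a log2 ratio of -0.05 (-3.29 to 0.19 over the alternatives) and Lrrn4 one of -0.29 (-1.29 to -0.06). Msln, the mesothelial surface protein, was at 91.8 against 15.4 CPM (5.97-fold) and had a count in 26.1% of cells; among barcodes under 10000 counts its log2 ratio was 1.44. Upk1b, a uroplakin, was at 106 against 55.9 CPM, with log2 ratios from -0.76 to 0.93 over the alternatives. Whether epicardial cells are among the 717 was not tested.

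Of the cell cycle genes, 15 of 16 mitosis genes (median log2 ratio -0.91) and 13 of 14 replication genes (median -0.65) lay below 0. Cdk1, the mitotic kinase, was at 16.2 against 35.1 CPM. The mitosis gene above 0 was Cenpa, the centromere histone, at 166 against 25.2 CPM (6.59-fold, 95% interval 6.18 to 7.03), with a count in 77.3% of cells. Cdkn1a, the p21 cell cycle inhibitor, was at 1285 against 705 CPM, and Cdkn2a, the p16 and p19 locus, at 33.1 against 72.8 CPM.

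The cells differed among themselves along the number of selection genes, which is a range and not a type. In barcodes with 10000 counts or more, Myh6 was at 15.1, 90.3, 247 and 1333 CPM with 5, 6, 7 and 8 genes, Tnnc1 at 168, 308, 345 and 969.6 CPM, and Sln at 973, 2201, 3423 and 5824 CPM. These 3 muscle genes were highest in the cells with all 8, of which 108 had that depth. Mef2c was at 403, 569, 581 and 589.5 CPM in the same steps, so most of its span lay below 6 genes. Gata4 went from 88.2 to 143 CPM and Tbx5 from 9.22 to 20.7 CPM. Col1a2 ran the other way, at 1243, 854, 730.0 and 376 CPM. Across the 504 cells of that depth, Spearman's rho was 0.62 for Myh6 and Tnnc1, 0.53 for Myh6 and Sln, -0.38 for Tnnc1 and Col1a2 and 0.04 for Mef2c and Tnnc1; the cells share 1 library and their depth, and the values are a description.

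**Figure D4:**
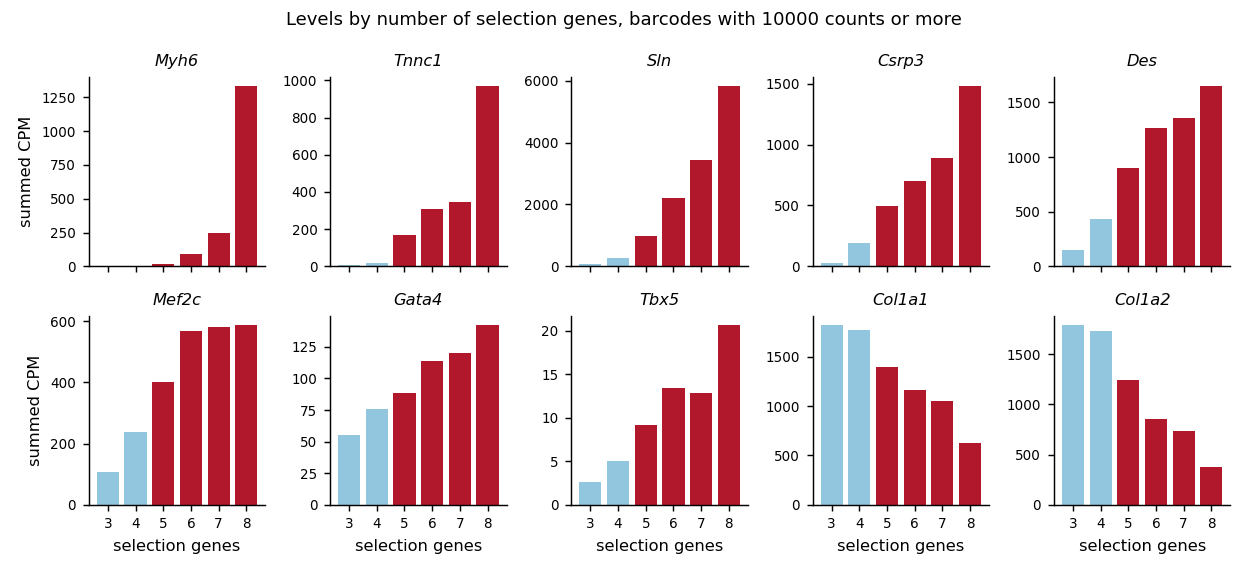
Summed CPM (y axis) of 10 genes in neonatal barcodes with 10000 counts or more, by the number of selection genes with 2 counts (x axis; 3 and 4 in blue are not cardiomyocyte-like, 5 to 8 in red are). Myh6 reaches 1333 CPM with all 8 genes while Mef2c stays between 569 and 589.5 CPM from 6 genes on and Col1a2 is lowest, 376 CPM, at 8.

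The 3 depth classes differed as well. Tnnc1 was at 1347 CPM in the cells under 10000 counts, 444 CPM in the middle class and 431 CPM in the deepest. Mb, myoglobin, followed the same order at 1206, 277 and 163 CPM. Col1a1 was at 241, 849 and 1107 CPM. The shallow cells held more of these muscle genes and less collagen per count, and a shallow barcode needs a higher share of selection genes to pass the rule.

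The 8 barcodes of the 24-month library had 13816 to 91305 counts and 0.471% to 2.49% of counts in the selection genes. All 8 had counts of Tnnt2 (31 to 659), Myl4 (28 to 1298) and Mef2c (5 to 115). Myh6 and Csrp3 had 0 counts in each, and Tnnc1 had 1 count in 2 of them. Sln had counts in 5 and Des in 5. At 412105 counts together, 0 counts of Myh6 allow up to 7.28 CPM, against 406 CPM in all neonatal cardiomyocyte-like cells. These levels are not matched, because 6 of the 24-month barcodes had 5 selection genes, 1 had 6 and 1 had 7. Neonatal cells with 5 selection genes and 10000 counts or more stood at 15.1 CPM of Myh6.

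Bulk libraries, which the cell rule did not use, held 14.5M to 18.8M counts each in the LacZ and MGT table and 17.3M to 22.3M in the CF table; the tables were scaled separately. In bulk, fewer cells of a type and less RNA per cell cannot be told apart. In neonatal cells 3 days after MGT, 698 of 16368 genes (4.26%) were up against LacZ and 531 (3.24%) down at an edgeR adjusted p under 0.05, 7.51% in all. Of the 116 genes higher in the cardiomyocyte-like cells, 111 were tested and 80 were up and 1 down, with a median log2 fold change of 1.23 beside -0.01 over all genes. Of the 46 lower genes, 1 was up and 10 down (median -0.26). By list, 7 of 11 thin filament, 4 of 8 thick filament, 10 of 14 Z-disc and 8 of 11 calcium genes rose and none fell. Only 3 of 11 channel genes rose, and of 16 cardiac transcription factors 3 rose and 2 fell. Of the fibroblast markers 1 rose and 6 of 12 fell (median -0.33), and of the epicardial markers 1 rose and 5 of 8 fell (median -1.08). Of the smooth muscle genes 4 of 10 rose, 1 of 9 endothelial genes fell, and no macrophage, mitosis or replication gene passed. The part of these other markers in the muscle gene result was not tested. Of the selection genes 7 of 8 rose; the weakest of them, Actn2, had an adjusted p of 0.0487 in edgeR and lost its call without 1 LacZ library or either MGT library (adjusted p = 0.587, 0.0718 and 0.498) and in DESeq2 (0.345).

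Single genes show how unevenly the muscle program appeared in bulk. Tnnt2 was at 310.0 and 262 CPM in the neonatal LacZ libraries and 879 and 1276 CPM in the MGT libraries (log2 fold change 1.91, standard error 0.18, edgeR adjusted p = 8.72e-05). Myl4 went from 5.07 and 5.39 to 250.2 and 383 CPM (log2 fold change 5.92, standard error 0.23, edgeR adjusted p = 3.47e-08), and both MGT libraries lay far above both LacZ libraries. Ttn was at 3.48 and 3.74 CPM after LacZ and 48.7 and 87.6 CPM after MGT (log2 fold change 4.23, standard error 0.32, edgeR adjusted p = 3.76e-05). In a fit of these 2 groups alone the calls of Tnnt2, Myl7, Actc1 and Ttn were lost (edgeR adjusted p = 0.0977, 0.0581, 0.0758 and 0.0773). Csrp3, the Z-disc LIM protein, had 6 counts in the LacZ and 518 in the MGT libraries, a ratio of 91.5 (95% interval 41.8 to 251). Sln had 2 and 95 counts, a ratio of 50.4 (13.6 to 422), and Smpx 4 and 536 counts, a ratio of 142 (55.2 to 523).

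Other genes of the cardiomyocyte-like cells did not pass in bulk. Myh6 was at 8.32 and 7.63 CPM after LacZ and 7.53 and 8.66 CPM after MGT (log2 fold change 0.02, standard error 0.24, edgeR adjusted p = 0.988), and the groups overlap. Tnni3 was at 0.741 and 0.267 CPM after LacZ and 0.787 and 0.969 CPM after MGT (log2 fold change 0.80, standard error 0.63, edgeR adjusted p = 0.626) and Tnnc1 at 2.96 and 1.87 CPM after LacZ and 3.32 and 4.6 CPM after MGT (log2 fold change 0.71, standard error 0.30, edgeR adjusted p = 0.212). All 3 were higher in neonatal than in 3-month CFs without MGT or LacZ: in neonatal CFs Myh6 stood at 143 and 128 CPM, Tnni3 at 6.94 and 4.72 CPM and Tnnc1 at 9.05 and 8.13 CPM. In 3-month CFs Myh6 was at 2.16 and 4.46, Tnni3 at 0.495 and 1.15 and Tnnc1 at 1.84 and 1.63 CPM. Neonatal against 3-month CFs, the change was 5.37 for Myh6 (edgeR adjusted p = 2.73e-07), 2.84 for Tnni3 (4.34e-10) and 2.30 for Tnnc1 (2.33e-11) on the log2 scale.

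**Figure D5:**
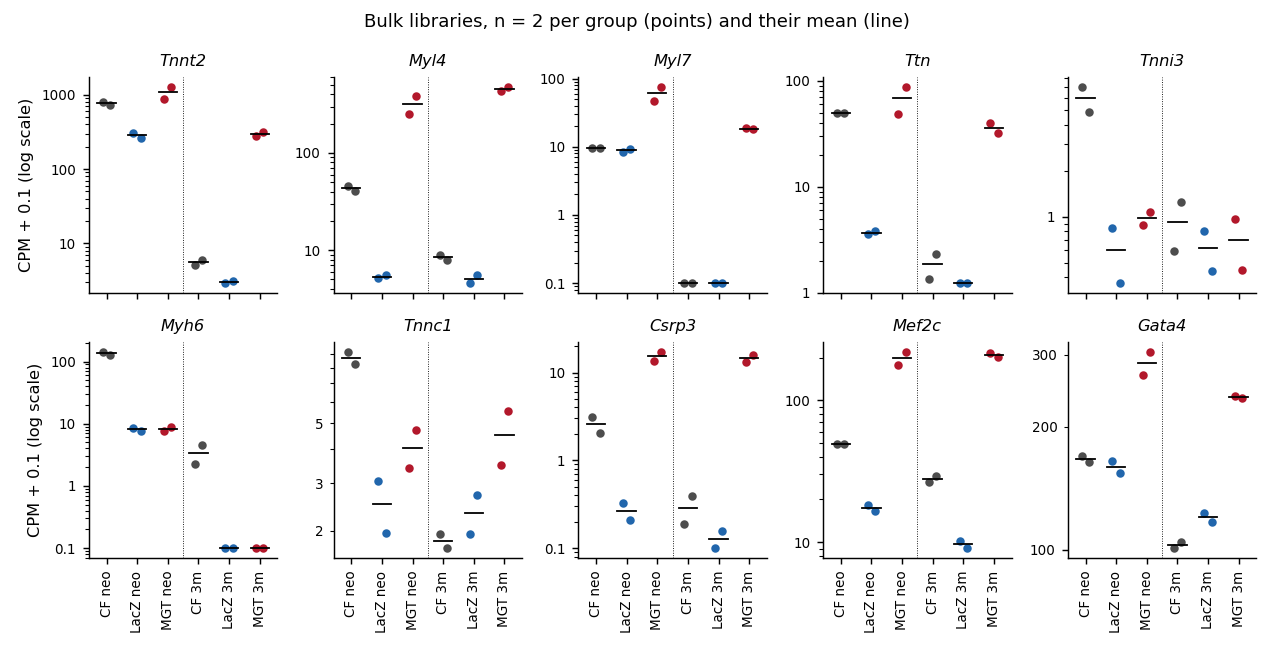
Levels in single bulk libraries (points; y axis CPM + 0.1, log scale) with the mean of the 2 libraries of a group (line), for neonatal (left of the dotted line) and 3-month cells: CFs without MGT or LacZ, LacZ and MGT. Myl4, Csrp3 and Mef2c separate MGT from LacZ at both ages, while Myh6 is highest in neonatal CFs without MGT or LacZ.

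Cardiac transcripts were also present in neonatal cultures that had received neither MGT nor LacZ. Tnnt2 was at 794 and 735 CPM in neonatal and 5.08 and 5.85 CPM in 3-month CFs without MGT or LacZ (log2 fold change 7.13, standard error 0.08, edgeR adjusted p = 2.01e-34). Between these groups 4021 of 16466 genes (24.4%) were up in neonatal cells and 4618 (28%) down, 52.5% in all, and of the 110 tested single-cell higher genes 76 were up and 19 down (median log2 fold change 1.31). The single-cell lower genes had a like share, with 31 of 45 up and 10 down (median 1.26). All 8 selection genes and all 11 tested genes of both the thin and the thick filament lists were up. Markers of other cell types were up in the same comparison: 8 of 8 epicardial genes (median 4.36), 9 of 10 macrophage genes (1.32), 6 of 10 endothelial genes with 2 down (2.15) and 9 of 10 smooth muscle genes with 1 down (1.94). Their part in the difference was not tested. Among LacZ cells, 60 of 111 single-cell higher genes were up and 12 down in neonatal against 3-month cells, and 11 of 46 lower genes were up and 22 down, where 15.8% and 15.1% of all genes were. Epicardial genes were up in 8 of 8 cases there (median 7.26), endothelial genes in 7 of 9 (4.08), macrophage genes in 3 of 10 with 1 down and smooth muscle genes in 10 of 10. The comparisons with LacZ cells share the LacZ libraries. Whether a cardiomyocyte-like cell arose by reprogramming or was a cardiomyocyte carried over from the neonatal heart was not tested.

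At 3 months MGT against LacZ gave 1472 genes up (8.99%) and 1374 down (8.39%), 17.4% in all, and of the 111 single-cell higher genes 79 were up and 2 down (median log2 fold change 1.46). Myl4 was at 4.48 and 5.39 CPM after LacZ and 431 and 478 CPM after MGT, and its MGT effect did not pass for a difference from the neonatal one (log2 fold change -0.60, standard error 0.33, edgeR adjusted p = 0.505); that passed without neonatal MGT replicate 2 (-0.93, adjusted p = 0.0048) and without the low-count filter (adjusted p = 0.0381). Myl7 had 0 counts in the 3-month LacZ libraries and 560 after MGT, at least 203-fold more (floor of 3 counts over the group). Myh6 had 0 counts in the LacZ libraries at 3 months and 0 after MGT, whereas the neonatal LacZ libraries held 289 counts, at least 88.1-fold more. As a test of the difference between ages itself, the MGT effect in neonatal minus 3-month cells called 231 genes up (1.41%) and 374 down (2.28%), 605 in all and 1760 without 3-month LacZ replicate 1, and of the 111 higher genes 11 up and 28 down (median -0.39, beside 0.01 over all genes).

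All 3 reprogramming factors, Mef2c, Gata4 and Tbx5, were up against LacZ at both ages. Mef2c was at 18.3 and 16.5 CPM after LacZ and 178 and 219 CPM after MGT in neonatal cells (log2 fold change 3.51, standard error 0.13, edgeR adjusted p = 1.75e-15), and Tbx5 at 2.45 and 1.97 CPM after LacZ and 218 and 270.0 CPM after MGT (log2 fold change 6.78, standard error 0.16, edgeR adjusted p = 2.34e-18). Gata4, already expressed by neonatal CFs, was at 165 and 154 CPM after LacZ and 268 and 305 CPM after MGT (log2 fold change 0.84, standard error 0.09, edgeR adjusted p = 9.83e-08). At 3 months Mef2c was at 10.1 and 8.97 CPM after LacZ and 214 and 200.1 CPM after MGT (log2 fold change 4.44, standard error 0.14, edgeR adjusted p = 3.24e-17), and Tbx5 at 1.22 and 0.795 CPM after LacZ and 289 and 278 CPM after MGT (log2 fold change 8.15, standard error 0.19, edgeR adjusted p = 6.16e-19). Mybpc3 was at 1.2 and 1.65 CPM after LacZ and 7.42 and 12.1 CPM after MGT in neonatal cells (log2 fold change 2.76, standard error 0.32, edgeR adjusted p = 6.81e-07), with no overlap. Nr4a3 was at 2.73 and 2.83 CPM after LacZ and 10.1 and 8.18 CPM after MGT (log2 fold change 1.72, standard error 0.23, edgeR adjusted p = 2.15e-05). Desmin (Des) rose from 14.9 and 14.6 to 249 and 315 CPM in neonatal cells (log2 fold change 4.26, standard error 0.11, edgeR adjusted p = 3.08e-19). Col1a1 was at 6342 and 6310.1 CPM after LacZ and 5959 and 5828 CPM after MGT (log2 fold change -0.10, standard error 0.09, edgeR adjusted p = 0.707). Col1a2 was called down by a small amount in the same comparison (log2 fold change -0.28, edgeR adjusted p = 0.0257). Cenpa, higher in the cardiomyocyte-like cells, was at 51.1 and 50.1 CPM after LacZ and 55.9 and 50 CPM after MGT (log2 fold change 0.07, standard error 0.10, edgeR adjusted p = 0.847).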

How the data were processed

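Single-cell matrices hold the authors' unnormalized counts of 32285 genes in each barcode; the labels name 10x Genomics, and the barcode caller is not given in the sources used here. Bulk values are deposited read counts per gene. The submitters' processing notes name mm10 as the build and list SAMtools, Trimmomatic 0.36, featureCounts and Subread 1.5.1. FPKM columns were not used.

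Counts of a group of barcodes were summed and scaled to CPM, and ratios have exact conditional and shares exact Clopper-Pearson 95% intervals. For the ratios, a group of barcodes with under 3 counts of a gene was set to 3. No doublet caller was run. Bulk tables were fitted in R 4.3.3 with edgeR 4.0.16 (filterByExpr, TMM, 1 coefficient per group over all 12 or 8 libraries of a table, robust quasi-likelihood test, Benjamini-Hochberg adjustment), and DESeq2 1.42.0 was an alternative. On data simulated for the neonatal MGT comparison with 15859 genes, edgeR called 87% of 100 genes changed 2-fold and 100% of 100 changed 4-fold, with 9 false calls. Each simulated gene had the spread predicted from its mean level, without a spread of its own. Only genes with a mean above 1 CPM were changed, all upward in 1 group. The shares hold for that setting and may be lower in the real libraries. Libraries of older mice entered the fits for the spread only, among them columns named for 15 and 13 months, taken as the 18-month and 12-month samples of the labels.

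Cells, gene lists and comparisons were chosen with earlier results of these data known. Named genes are the selection genes, the 3 factors, Nr4a3, up to 4 members of each of 26 further lists by summed CPM and the 15 largest ratios in each direction without predicted genes; Acta1, Xirp2, Tcap, Pln, Casq2, Myl3, Nkx2-5, Myod1, Myf5, Myf6 and Pax7 were named after their values were seen. Replicate numbers did not pair libraries: deviations of same-numbered libraries correlated at 0.062 (3-month MGT against LacZ) and -0.013 (CFs). Motif letters were read from RefSeq promoters.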

Additional observations from a re-analysis of the deposited data

Results flagged for a closer look

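For 9 genes, the effect of MGT over LacZ in bulk differed between neonatal and 3-month cells by a test of that difference (edgeR interaction term, n = 2 per group, adjusted over 16368 genes of which 3.7% passed). Upk1b differed by -6.03 on the log2 scale (adjusted p = 4.88e-16), at 146 and 139 CPM after LacZ with 83 and 89.6 CPM after MGT in neonatal cells, and 0.959 and 0.738 CPM with 30.9 and 36.4 CPM in 3-month cells. Msln, the other mesothelial gene, differed by -5.35 (adjusted p = 1.48e-15), at 127 and 122 CPM after LacZ with 118 and 135 CPM after MGT in neonatal cells, and 1.02 and 0.738 CPM with 36.4 and 36.5 CPM in 3-month cells. Both epicardial genes thus moved with MGT at 3 months from levels near 1 CPM. Tnnt2 differed by -4.74 (adjusted p = 2.77e-05), and 3-month LacZ cells stood at 2.81 and 3.01 CPM and MGT cells at 276 and 313 CPM. Its level after LacZ was already higher in neonatal than in 3-month cells (log2 fold change 6.61, edgeR adjusted p = 2.68e-08). Both neonatal MGT libraries lay above both 3-month MGT libraries for Tnnt2. Des differed by -1.82 (adjusted p = 1.56e-07). Rrad differed by 2.13 (adjusted p = 0.00458), at 2.62 and 3.15 CPM after LacZ with 13.1 and 20.3 CPM after MGT in neonatal cells, and 5.69 and 5.51 CPM with 6.94 and 7.86 CPM in 3-month cells.

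The other 4 depended on a library. Nppa differed by -3.01 (adjusted p = 0.0124) and lost the call without 3-month LacZ replicate 2 (-1.97, adjusted p = 0.131). Mef2c differed by -0.93 (adjusted p = 0.00264) and lost it without the same library (-0.84, adjusted p = 0.0654). Myom2 differed by -2.06 (adjusted p = 0.00978) and lost it without a neonatal LacZ library (adjusted p = 0.0536) and without 3-month LacZ replicate 1 or 2 (adjusted p = 0.129 and 0.368). Tbx5 differed by -1.36 (adjusted p = 0.0183) and lost it without the same 3 libraries (adjusted p = 0.142, 0.0529 and 0.363).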

How the results depend on the processing

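The share of cardiomyocyte-like barcodes, 18.7%, was 27.4% with 4 selection genes, 10.4% with 6, 27.4% at a count of 1, 15.6% at a count of 3 and 22.7% among barcodes with 1000 genes. Of the alternatives added after the data were seen, 10000 counts or more gave 24.9% and a share of at least 2% of counts in the selection genes 25.1%. At 20 CPM 183 genes were higher and 103 lower; 80 were lower without the 5% deepest barcodes and 94 under 10000 counts (added). Of 1342 recomputed ratios of 122 named genes, 685 were classed as the same and 654 as moved. The side of 0 was kept in every alternative by 103 of the 122 genes. The remaining 3 ratios, of genes called higher or lower, changed sign. All were for cells without macrophage or endothelial markers against fibroblast-marker barcodes (added): Ccl4 (log2 2.80), Cd72 (0.68) and Cd52 (0.13). Of genes past 4-fold but under 50 CPM, Cdh5 (-5.72) and Rgs5 (-2.07) turned to 1.38 and 1.64 among barcodes under 10000 counts (added). In bulk, fits of only the groups compared called 1977 genes (neonatal) and 1798 (3 months), against 1229 and 2846. Leaving out 1 library gave 688 to 1037 genes for neonatal MGT, 1732 to 4476 at 3 months, 363 to 1760 for the difference between ages, 3375 to 6423 for LacZ and 7325 to 7656 for CFs. Both upper values of 4476 and 1760 came without 3-month LacZ replicate 1. Without 3-month MGT replicate 1 or 2 the counts were 1732 and 1859 at 3 months and 363 and 382 for the difference, which was 375 and 372 without either neonatal LacZ library. Small neonatal MGT effects changed sign when a library was left out: Myh6 ranged from -0.081 to 0.13 (-0.034 in between), Tbx20 from -0.062 to 0.023 (0.0084 in between), Cenpa from -0.0092 to 0.15 and Msln from -0.081 to 0.13. With the replicate number as a block the counts were 2623 at 3 months and 8540 for CFs, and no call named here was lost. No paired analysis was possible because neonatal LacZ columns carry no single replicate number, for the other comparisons. Actn2 (adjusted p = 0.0487) was not called by DESeq2 (0.345). The causes were not tested. Depth limits Tbx5, Nr4a3 and all genes in cells under 10000 counts.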

Other observations

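Some genes of the cardiomyocyte-like cells were near 0 in bulk. Tnnt3, a fast skeletal troponin T, was at 218 CPM in these cells, with a count in 57.6% of them, but at 0.675 and 0.545 CPM in the neonatal MGT and 1.13 and 0.739 CPM in the neonatal CF bulk libraries. The skeletal light chain Myl1 was at 168 CPM in the cells and had 7 counts in both neonatal MGT libraries together and 0 after LacZ. Kcnc4, a potassium channel gene, was 107-fold higher than in the reference in single cells (95% interval 79.5 to 149) and had 147 against 3 counts in neonatal MGT and LacZ bulk libraries, a ratio of 52.0 (95% interval 17.4 to 255). Whether bulk and single-cell libraries were collected on the same day is not given in the sources used here.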
